A study of Mus musculus with 30 samples.

Results

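The 9 genes described here make up the TGF-beta module of ligands, receptors and latent binders: the ligand genes Tgfb1, Tgfb2 and Tgfb3, the type I and type II receptor genes Tgfbr1 and Tgfbr2, and the latent TGF-beta binding protein genes Ltbp1, Ltbp2, Ltbp3 and Ltbp4. They were matched by gene symbol, and all 9 were found among the 36103 genes of the count table. TGF-beta is secreted in a latent form, in which the cytokine stays bound to its own propeptide, and most latent binding proteins link this complex to fibrillin and fibronectin in the extracellular matrix. Integrins, thrombospondin and proteases release the cytokine, which joins type II and type I receptors and leads to phosphorylation of Smad2 and Smad3. In skeletal muscle the pathway is known for its links to connective tissue growth, fibrosis and the restraint of myoblast fusion. Ltbp2 differs from the other binders in that it does not bind latent TGF-beta itself, although it sits on fibrillin microfibrils.

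RNA was sequenced from whole gastrocnemius (a fast hindlimb muscle), diaphragm, heart and liver of male mice at 5 weeks, all bred on the 129Pas background. Mtm1-/y mice are knockouts of the X-linked gene of the phosphoinositide phosphatase myotubularin, and WT littermates served as controls. There were 4 libraries per genotype for gastrocnemius and heart, 4 (WT) and 3 (Mtm1-/y) for diaphragm, and 3 (WT) and 4 (Mtm1-/y) for liver. The design asks what loss of myotubularin changes in muscle and in other organs. Levels are given in CPM, counts relative to TMM-scaled library totals, or in RPKM, the same per kilobase of exon, where levels of different genes are set side by side. Differences are log2 fold changes of Mtm1-/y against WT with their standard error (SE), from edgeR's quasi-likelihood test, and a gene was called at a Benjamini-Hochberg adjusted p under 0.05 over all genes tested in that tissue.

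The libraries held 24873817 to 44289343 counts, and a member gene had between 11 and 23982 counts in a library. Mtm1 itself was lower in every tissue, with log2 fold changes of -2.07 (gastrocnemius), -2.26 (diaphragm), -2.59 (heart) and -1.60 (liver), and its groups did not overlap in any of them. The edgeR adjusted p of Mtm1 was 2.1e-05, 0.027, 2.6e-05 and 0.37 in that order, and in the liver DESeq2 gave 1.3e-06. Skeletal myofibre, cardiomyocyte and hepatocyte markers were at their highest in muscle, heart and liver. However, liver-enriched genes took a larger share in 5 of the 7 diaphragm libraries than in any heart library: genes more than 10-fold higher in WT liver than in WT gastrocnemius took 1.71% to 17.3% of the counts in WT diaphragm and 1.84% to 19.9% in Mtm1-/y diaphragm, against 1.65% to 2.57% in heart. The share in gastrocnemius, at most 0.947%, is low by the choice of these genes. WT heart 4 stood apart from the other WT hearts with a summed fibroblast marker level of 4570 CPM against 1670 to 3040 CPM. Mtm1-/y liver 2 had a summed macrophage marker level of 72.9 CPM against 227 to 298 CPM in the other Mtm1-/y livers.

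Positions are given on GRCm38. The ligand genes are at chr7:25687002-25705077 on the plus strand (Tgfb1), chr1:186622792-186705989 on the minus strand (Tgfb2) and chr12:86056745-86079041 on the minus strand (Tgfb3), and the receptor genes at chr4:47353222-47414931 on the plus strand (Tgfbr1) and chr9:116084293-116175360 on the minus strand (Tgfbr2). The binder genes are at chr17:75005568-75392512 on the plus strand (Ltbp1), chr12:84783212-84876532 on the minus strand (Ltbp2), chr19:5740904-5758532 on the plus strand (Ltbp3) and chr7:27305136-27337692 on the minus strand (Ltbp4). Exons shared with a gene on the opposite strand made up 12.4% of the Tgfb3 exons, 9.34% of those of Ltbp2, and 2.14% and 2.01% of those of Tgfb2 and Ltbp3. The partner of Ltbp2, D030025P21Rik, reached at most 0.0692 CPM in any library. RefSeq promoter windows (GRCm38.p6) were matched for 8 of the 9 genes, all but Tgfb3, in 12 windows of 200 bases that run from 250 to 51 bases before an annotated start. The outermost windows of the 3 members with the largest fold changes in the gastrocnemius are shown, chr12:84876542-84876741 on the minus strand for Ltbp2, chr7:25686752-25686951 on the plus strand for Tgfb1 and chr17:75005279-75005478 on the plus strand for Ltbp1, with capitals for the Smad element CAGAC and the GC box GGGCGG on either strand.
Ltbp2: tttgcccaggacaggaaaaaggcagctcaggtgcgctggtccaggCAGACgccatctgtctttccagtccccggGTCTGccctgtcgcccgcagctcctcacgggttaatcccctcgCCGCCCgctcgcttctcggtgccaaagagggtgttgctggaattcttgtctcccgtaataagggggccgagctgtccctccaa
Tgfb1: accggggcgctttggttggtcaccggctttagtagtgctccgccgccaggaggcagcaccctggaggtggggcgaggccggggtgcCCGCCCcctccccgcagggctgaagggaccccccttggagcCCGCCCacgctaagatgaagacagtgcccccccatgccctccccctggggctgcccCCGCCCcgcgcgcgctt
Ltbp1: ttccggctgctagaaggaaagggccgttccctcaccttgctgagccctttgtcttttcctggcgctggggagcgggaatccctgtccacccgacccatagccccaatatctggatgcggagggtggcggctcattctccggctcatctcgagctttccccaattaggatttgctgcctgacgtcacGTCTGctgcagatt

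The letters of the Smad element were present 2 times in the Ltbp2 window, 1 time in the outermost Ltbp1 window and 0 times in the Tgfb1 window, which held 3 GC boxes and had a GC content of 74%. Across the members, 7 of the 12 windows held CAGAC and 6 held GGGCGG, against 35.8% and 24.6% of all 32841 promoter windows of this length. The 12 windows come from 8 genes and are not independent: Ltbp4 gave 3 of the 6 with GGGCGG, and a pair of its windows overlap. Neither the AP-1 letters TGANTCA (5.58% of all windows) nor the TEAD letters GGAATG (10.7%) occurred on either strand in any of the 12. These matches describe the letters in the windows.

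In WT tissues the liver was low for most members. Tgfb2, Tgfb3 and Ltbp3 were high in the muscles and heart and 15.8- to 16.7-fold lower in liver than in heart. Tgfb1, Ltbp1 and Ltbp4 were higher in the heart than in any other tissue, Tgfbr2 and Ltbp2 were high in heart and diaphragm alike, and Tgfbr1 varied by at most 1.53-fold. A tissue pair was called for 6 of the 9 members between gastrocnemius and diaphragm, for 8 between gastrocnemius and heart, and for 3 between diaphragm and heart, where 54.4%, 61.3% and 51.7% of all 17725 genes were called. Each muscle and the heart differed from the liver in 8 members, beside 79.5% of all genes for the gastrocnemius, 76.1% for the diaphragm and 76.4% for the heart.

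Among the ligands, Tgfb1, the isoform best known from immune cells and platelets, was at 13.7 ± 0.502 CPM in WT heart (SD, n = 4), 9.3 ± 1.72 CPM in diaphragm (n = 4), 5.81 ± 0.752 CPM in liver (n = 3) and 5.77 ± 0.97 CPM in gastrocnemius (n = 4). Each step down this order passed the test except that from liver to gastrocnemius (1.05-fold, edgeR adjusted p = 0.71). Tgfb2, an isoform of developing heart and matrix-producing cells, was at 28.1 ± 5.76 CPM in gastrocnemius, 23.1 ± 6.4 CPM in diaphragm, 18.3 ± 10.6 CPM in heart and 1.14 ± 0.368 CPM in liver. Only the last step was called for Tgfb2. Tgfb3, the isoform best known from palate and tendon development, ran from 50.8 ± 2.81 CPM in gastrocnemius through 41.8 ± 7.96 CPM in diaphragm and 29.4 ± 12.4 CPM in heart to 1.82 ± 0.0896 CPM in liver, and again only the step from heart to liver was called (16.6-fold, edgeR adjusted p = 1.6e-08). Without WT heart 4, which was the highest heart library for both genes, the diaphragm also exceeded the heart in Tgfb2 and in Tgfb3 (edgeR adjusted p = 0.008 and 7.6e-05).

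Per kilobase, Tgfb3 was the most abundant ligand transcript in the muscles and heart. It held 71.6 ± 2.02% of the summed ligand RPKM in WT gastrocnemius, 67.8 ± 3.55% in diaphragm and 59.1 ± 2.23% in heart. In WT liver Tgfb1 held 61.0 ± 4.39% and Tgfb3 28.7 ± 2.42%. The summed ligand level was 21 ± 1.65 RPKM in WT gastrocnemius, 18.2 ± 3.01 in diaphragm, 14.6 ± 5.54 in heart and 1.89 ± 0.162 in liver. Where the longest transcript was taken as the length in place of all merged exons, Tgfb3 held 66.1%, 60.1%, 48.5% and 18.0% in these tissues, so that the leading ligand stayed the same in each.

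Tgfbr1, the type I receptor kinase, was at 51 ± 5.85 CPM in WT gastrocnemius and at 37.2 ± 1.19, 35.3 ± 3.92 and 34.1 ± 3.45 CPM in heart, liver and diaphragm. The gastrocnemius was above the other 3 tissues (1.41-fold over heart, edgeR adjusted p = 0.00058), which did not differ from each other beyond their spread. Tgfbr2, the ligand-binding type II receptor, was at 85.6 ± 16.1 CPM in heart, 73.6 ± 10.5 in diaphragm, 47.4 ± 8.5 in gastrocnemius and 16.2 ± 1.21 in liver, and all steps passed the test except heart to diaphragm (edgeR adjusted p = 0.26). Tgfbr1 held 73.1 ± 3.22% of the summed receptor RPKM in liver but 35.6 ± 3.5% in heart.

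Ltbp4, a binder of elastic fibres that carries mainly Tgfb1, was the most abundant binder transcript per kilobase in every tissue, with 63.6 ± 4.88% of the summed Ltbp RPKM in WT gastrocnemius, 70.9 ± 3.62% in diaphragm, 79.1 ± 1.34% in heart and 81.2 ± 1.21% in liver. Its level was 408 ± 158 CPM in WT heart, 241 ± 53.3 in diaphragm, 160 ± 18.6 in gastrocnemius and 39.2 ± 3.21 in liver. The step from diaphragm to gastrocnemius lay at the threshold (1.47-fold, edgeR adjusted p = 0.048), was lost on leaving out any of 10 WT libraries in turn (adjusted p up to 0.12), and gave 0.052 in DESeq2. The step from heart to diaphragm gave an adjusted p of 0.012, and of 0.064 without WT heart 4.

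Ltbp1, a binder that anchors latent TGF-beta to fibronectin and fibrillin, was at 89.4 ± 17.7 CPM in WT heart, 44.0 ± 2.77 in diaphragm, 29.8 ± 4.79 in gastrocnemius and 6.81 ± 1.34 in liver, and every step of this order passed the test. Ltbp3, a binder known for its part in bone and vessel wall, was at 101 ± 14.2 CPM in gastrocnemius, 91.6 ± 11.2 in diaphragm, 63.8 ± 27.4 in heart and 4.15 ± 0.473 in liver. Ltbp2 was the scarcest binder per kilobase in every WT tissue and had an order of its own: 8.46 ± 3.75 CPM in WT heart and 6.58 ± 2.09 in diaphragm, which did not differ beyond their spread (edgeR adjusted p = 0.35), then 2.49 ± 0.592 in liver and 0.89 ± 0.0723 in gastrocnemius. It was the one member that was lower in WT gastrocnemius than in WT liver at the threshold, by 2.64-fold (edgeR adjusted p = 0.0039).

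**Figure D1:**
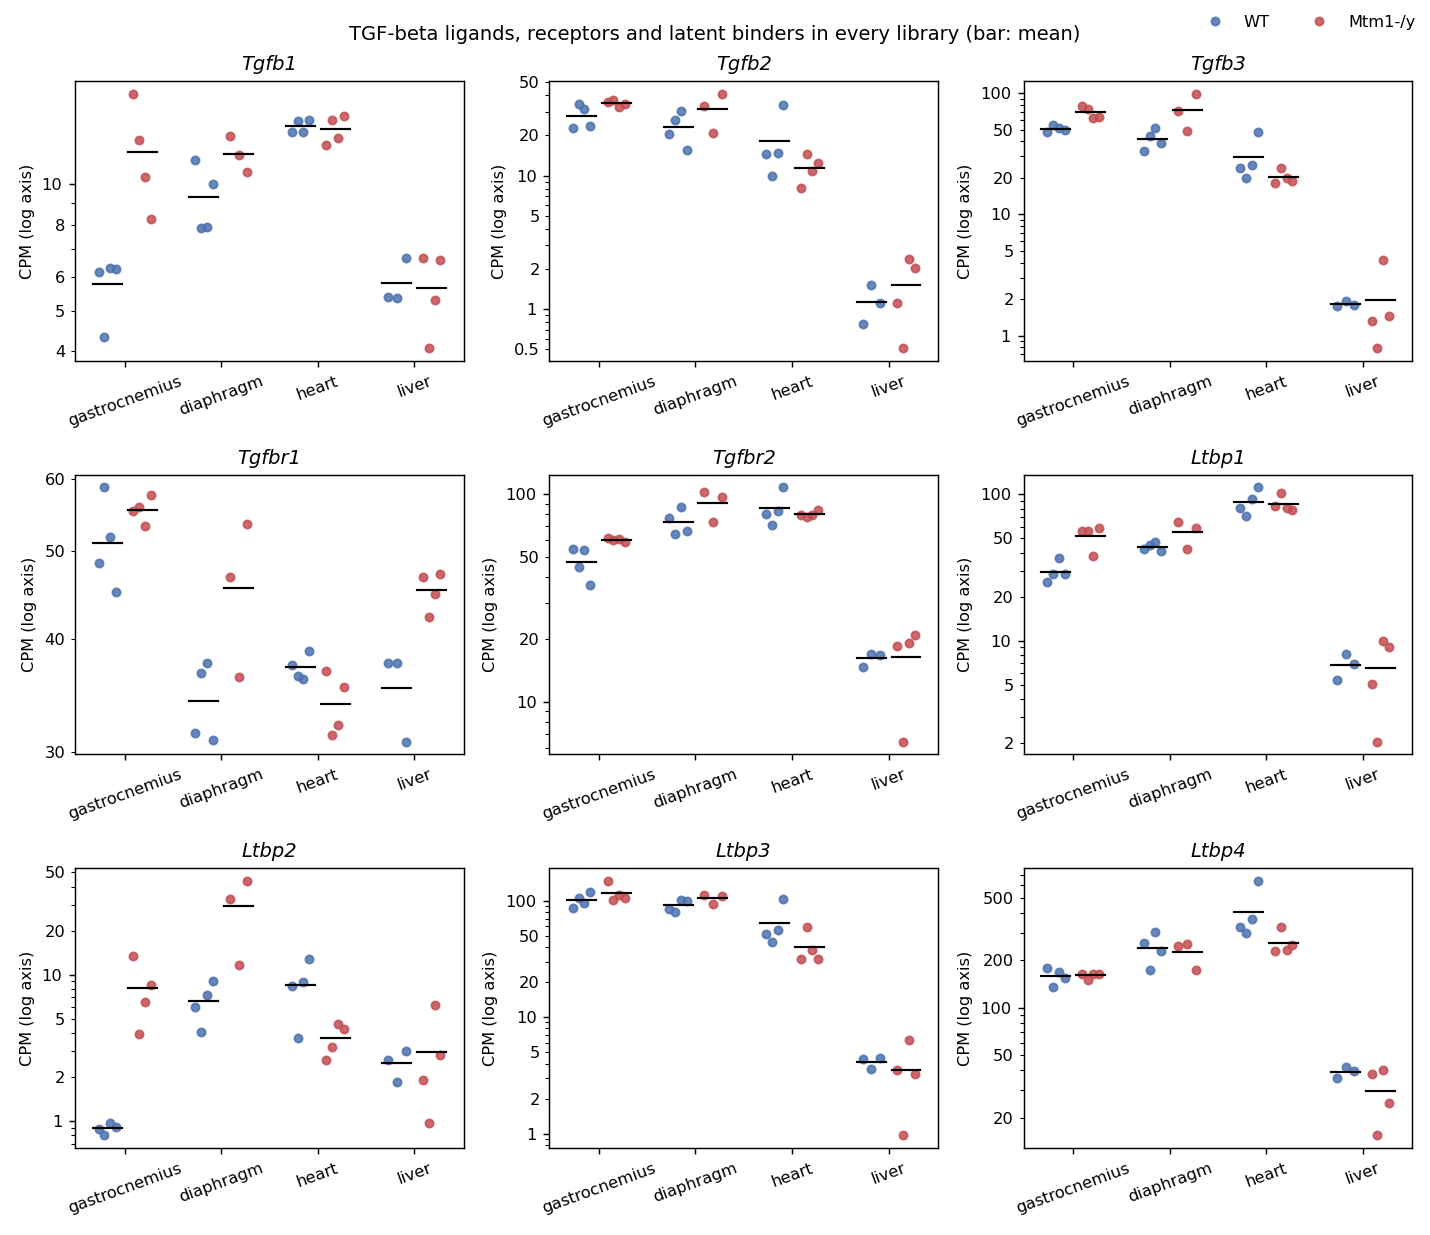
Level of each of the 9 genes in every library, in CPM on a log axis, by tissue (x axis), with WT in blue, Mtm1-/y in red and a black bar at the group mean. Tgfb2, Tgfb3 and Ltbp3 are lowest in the liver, and the 4 Mtm1-/y gastrocnemius libraries lie above the 4 WT libraries for Ltbp2 (3.91 to 13.4 against 0.8 to 0.973 CPM).

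In the gastrocnemius, 5 of the 9 genes rose in Mtm1-/y mice and 0 fell: the binder genes Ltbp2 and Ltbp1, the ligand genes Tgfb1 and Tgfb3, and the receptor gene Tgfbr2. Among all 15456 genes tested, 14.1% rose and 14.9% fell. The 9 genes were chosen with earlier results of these data known, so these counts are descriptions. Without adjustment 6 members had a p under 0.05, all higher, beside 20.9% of all genes higher and 20.7% lower. DESeq2 called 5 members, beside 12.5% of all genes higher and 13.4% lower. All 9 fold changes were positive, with a median of 0.36 on the log2 scale against 0.02 for all genes. The same 5 genes had Mtm1-/y libraries that all lay above the WT libraries, as did 13.9% of all genes, while 16.7% lay wholly below. Since these are whole muscles, a change in the number of cells of a type and a change of RNA per cell cannot be told apart.

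Ltbp2 changed most. Its level was 0.877, 0.8, 0.973 and 0.91 CPM in the 4 WT libraries (20 to 30 counts each) and 13.4, 3.91, 6.48 and 8.52 CPM in the 4 Mtm1-/y libraries. Every Mtm1-/y library stood at least at 3.91 CPM, above all WT libraries, but the Mtm1-/y libraries differed among themselves far more than the WT libraries did. Mean levels of 0.89 ± 0.0723 CPM (WT) and 8.08 ± 4.03 CPM (Mtm1-/y, SD, n = 4 each) gave a log2 fold change of 3.19 ± 0.36 (SE, edgeR adjusted p = 0.00034) or 9.13-fold, and it ranked 66 of 15456 genes from the highest fold change. The share of Ltbp2 in the Ltbp transcripts per kilobase was 0.28 ± 0.0107% in WT and 2.21 ± 0.929% in Mtm1-/y.

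Among the ligands, Tgfb1 was at 6.17, 4.32, 6.33 and 6.27 CPM in the WT libraries and at 16.4, 12.7, 10.4 and 8.26 CPM in the Mtm1-/y libraries, with no overlap. Its log2 fold change was 1.06 ± 0.21 (edgeR adjusted p = 0.0047). Tgfb3 was at 48.0, 54.5, 51.2 and 49.4 CPM in WT and at 78.3, 73.6, 62.2 and 63.0 CPM in Mtm1-/y, a smaller rise of 0.46 ± 0.09 (edgeR adjusted p = 0.0037) on a higher level, again without overlap. The Tgfb3 call was lost with all 30 libraries in 1 fit (edgeR adjusted p = 0.33). Tgfb2 was at 22.9 to 34.5 CPM in WT and 32.8 to 36.5 CPM in Mtm1-/y, which overlapped, and its difference of 0.32 ± 0.13 was not called (edgeR adjusted p = 0.092), although it was called without WT gastrocnemius 2 (0.43, adjusted p = 0.032). The summed ligand level was 21 ± 1.65 RPKM in WT and 28.9 ± 3.21 RPKM in Mtm1-/y, in which Tgfb3 held 71.6 ± 2.02% and 71.0 ± 0.375%.

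For the receptors, Tgfbr2 was at 54.3, 44.5, 54.0 and 36.6 CPM in WT and at 61.6, 60.0, 60.8 and 59.0 CPM in Mtm1-/y gastrocnemius. The groups did not overlap, and the Mtm1-/y libraries were the more alike of both groups (SD 1.1 against 8.5 CPM). This rise was at the threshold (log2 fold change 0.36 ± 0.12, edgeR adjusted p = 0.048): the call was lost without any 1 of 6 libraries, WT 2 or 4 or any Mtm1-/y library (adjusted p up to 0.12), with no filter on low counts (0.068), in limma voom (0.05) and with all 30 libraries in 1 fit (0.3), and it held in DESeq2 (0.028). Tgfbr1 was at 45 to 58.7 CPM in WT and 53.2 to 57.5 CPM in Mtm1-/y, with a log2 fold change of 0.13 ± 0.09 (edgeR adjusted p = 0.27), so that folds from 0.974 to 1.23 lay within 2 SE.

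Of the other binders, Ltbp1 was at 25.2, 28.7, 36.5 and 28.5 CPM in WT and at 55.8, 55.8, 37.8 and 58.6 CPM in Mtm1-/y gastrocnemius. Mtm1-/y 3 came close to the highest WT library, but the groups did not overlap, and the log2 fold change was 0.82 ± 0.15 (edgeR adjusted p = 0.0035). Ltbp3 was at 86.2 to 119 CPM in WT and 102 to 148 CPM in Mtm1-/y (0.22 ± 0.13, edgeR adjusted p = 0.24). Ltbp4, the most abundant of the 9 genes per kilobase in WT muscle, was at 136 to 178 CPM in WT and 150 to 165 CPM in Mtm1-/y, with a log2 fold change of 0.02 ± 0.09 (edgeR adjusted p = 0.89) and folds from 0.896 to 1.15 within 2 SE. Ltbp4 held 63.6 ± 4.88% of the Ltbp transcripts per kilobase in WT and 57.2 ± 3.57% in Mtm1-/y, and Ltbp1 7.18 ± 1.09% and 11.2 ± 2.08%. The genotypes overlapped for Ltbp4 (59.2 to 69.7% and 52.1 to 60.4%) and narrowly for Ltbp1 (5.97 to 8.48% and 8.4 to 13.0%). These shares were not tested.

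**Figure D2:**
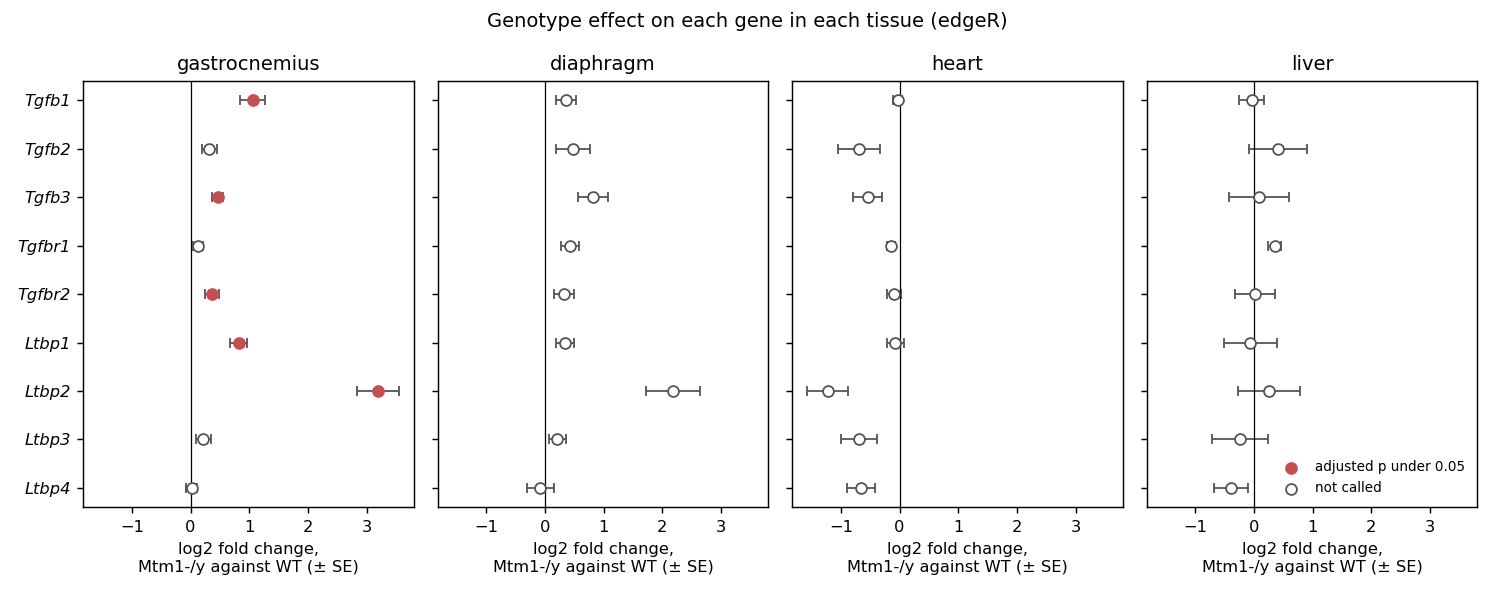
Log2 fold change of Mtm1-/y against WT for each gene (y axis) in each tissue (panels), with bars of 1 SE, filled red where the edgeR adjusted p was under 0.05 and white otherwise. In the gastrocnemius 5 genes are filled, with Ltbp2 at 3.19. In the diaphragm Ltbp2 lies at 2.18 without a call, and in the heart all 9 points lie below 0.

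Markers of other cell types moved with these genes in the gastrocnemius, where 14.1% of all genes rose and 14.9% fell. All 10 macrophage markers rose (summed level 58.8 to 101 CPM in WT and 175 to 219 CPM in Mtm1-/y), as did 7 of 8 white adipocyte markers (220 to 341 and 349 to 522 CPM) and 6 of 10 fibroblast markers (1060 to 1360 and 1260 to 1900 CPM). Their defining members Adgre1, Adipoq and Pdgfra all rose, with log2 fold changes of 1.31, 1.5 and 0.48 and edgeR adjusted p-values of 0.0028, 0.012 and 0.032. In contrast, 7 of 8 skeletal myofibre markers fell and 1 rose (216000 to 258000 and 134000 to 149000 CPM), and 3 of 8 endothelial markers fell and 0 rose (470 to 604 and 340 to 443 CPM). The smooth muscle and pericyte list had 2 higher and 4 lower of 8 members (665 to 746 and 717 to 920 CPM). The part of these cells in the changes of the 9 genes was not tested.

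Of tendon and cartilage markers in the gastrocnemius, 1 of 7 tested rose (40 to 257 CPM in WT and 48.1 to 281 CPM in Mtm1-/y), of platelet markers 1 of 2 (3.71 to 5.25 and 6.48 to 9.03 CPM), of mesothelial markers 1 of 2 (0.72 to 1.45 and 4.27 to 12.7 CPM), and of lymphocyte markers 0 of 1 (0.746 to 1.4 and 0.78 to 1.79 CPM). Hepatic stellate markers, led here by the muscle gene Des, had 1 of 4 higher, hepatocyte markers had 1 higher and 2 lower of 9 (37.7 to 122 and 19.1 to 68.4 CPM), and cardiomyocyte markers 2 higher and 1 lower of 4 (6810 to 7790 and 633 to 2490 CPM). Of all genes, 14.1% rose and 14.9% fell. With so few genes per list, 1 or 2 calls are not read as a change of the cell type.

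In the diaphragm, Ltbp2 was again the member with the largest difference, and edgeR called 0 of the 9 genes. Of all 16796 genes edgeR found 0.0% to rise and 0.0119% to fall. Without adjustment, 3 members had a p under 0.05, Ltbp2, Tgfb3 and Tgfbr1, all higher, beside 6.58% of all genes higher and 4.17% lower. DESeq2 called 1 member, Ltbp2, beside 1.72% of all genes higher and 0.675% lower, and limma voom called 0. The fold changes of 8 members were positive with a median of 0.36 over all 9, against -0.01 for all genes.

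Ltbp2 was at 6.0, 4.06, 7.23 and 9.03 CPM in WT diaphragm and at 32.8, 11.7 and 43.9 CPM in Mtm1-/y diaphragm. The groups did not overlap, as for 4.41% of all genes higher and 5.54% lower, with Mtm1-/y 2 much nearer to the WT libraries than Mtm1-/y 1 and 4 were. The means were 6.58 ± 2.09 (n = 4) and 29.5 ± 16.3 CPM (n = 3), a log2 fold change of 2.18 ± 0.46, with an adjusted p of 0.27 in edgeR and 0.00029 in DESeq2. Mtm1-/y 2 was also the library with the largest share of liver-enriched counts (19.9%, against 3.36% and 1.84% in Mtm1-/y 1 and 4), while in WT these shares were 17.3%, 11.6%, 1.71% and 14%. Without Mtm1-/y 2 the difference was 2.55 (edgeR adjusted p = 0.042), and with the liver-enriched share as a covariate, a fit added after seeing the data, it was 1.80 (0.13).

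Tgfb3 was at 33.1, 43.9, 51.8 and 38.5 CPM in WT and at 71.4, 48.6 and 98.6 CPM in Mtm1-/y diaphragm. Only Mtm1-/y 2 overlapped with WT, and the log2 fold change was 0.82 ± 0.25 (edgeR adjusted p = 0.34). Tgfbr1 was at 30.9 to 37.6 CPM in WT and 36.3 to 53.5 CPM in Mtm1-/y (0.43 ± 0.15, edgeR adjusted p = 0.38). Also not called were Tgfb1 with a difference of 0.36, Tgfb2 with 0.48, Tgfbr2 with 0.33, Ltbp1 with 0.34, Ltbp3 with 0.21 and Ltbp4 with -0.08 on the log2 scale. With all 30 libraries in 1 fit, however, edgeR called Ltbp2 (adjusted p = 0.015) and Tgfbr1 (0.049) in the diaphragm. Macrophage markers summed to 326 to 737 CPM in WT and 346 to 857 CPM in Mtm1-/y diaphragm, and fibroblast markers to 1140 to 1960 and 1570 to 2170 CPM, with 0 of either list called by edgeR and 2 fibroblast markers higher in DESeq2, beside 1.72% of all genes. Their part in the difference of Ltbp2 was not tested.

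In the heart, the 9 fold changes were all negative, with a median of -0.54 against -0.00 for all genes, but 0 members were called by edgeR, DESeq2 or limma voom. Among 15238 genes edgeR found 0.0% to rise and 0.00656% to fall, and DESeq2 0.102% and 0.359%. Without adjustment, 3 members had a p under 0.05, Ltbp2, Ltbp4 and Ltbp3, all lower, beside 3.05% of all genes higher and 5.83% lower. The groups overlapped for all 9 members, where they did not for 2.15% of all genes higher and 2.03% lower. WT heart 4 decided much of the size of these differences: without it the fold changes ran from -0.94 (Ltbp2) to 0.07 (Ltbp1), and Tgfbr2 and Ltbp1 were above 0.

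Ltbp2 was at 8.39, 3.67, 8.98 and 12.8 CPM in WT heart and at 2.63, 3.2, 4.6 and 4.23 CPM in Mtm1-/y heart. WT 2 fell among the Mtm1-/y libraries and the other 3 WT libraries lay above them. The log2 fold change was -1.22 ± 0.35 (adjusted p = 0.55 in edgeR and 0.067 in DESeq2), and without WT heart 4 it was -0.94 (0.87). Ltbp4 was at 327, 297, 367 and 642 CPM in WT and at 229, 325, 234 and 249 CPM in Mtm1-/y heart, where Mtm1-/y 2 reached the WT range. Its log2 fold change was -0.66 ± 0.24 with all libraries and -0.35 without WT heart 4 (edgeR adjusted p = 0.55 and 0.87).

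Ltbp3 and the muscle ligands showed the same library at the top. Ltbp3 was at 43.7 to 104 CPM in WT and 31.4 to 59.4 CPM in Mtm1-/y heart (-0.69 ± 0.3), Tgfb2 at 10.0 to 33.8 and 8.01 to 14.6 CPM (-0.69 ± 0.36), and Tgfb3 at 20.1 to 47.7 and 18.2 to 24.1 CPM (-0.54 ± 0.25). Each of these 3 had its highest value in WT heart 4, and without it the differences were -0.34, -0.20 and -0.20. Tgfb1 (-0.03 ± 0.08), Ltbp1 (-0.07 ± 0.15), Tgfbr2 (-0.10 ± 0.12) and Tgfbr1 (-0.14 ± 0.07) had the smallest differences. All 10 fibroblast markers had negative fold changes in the heart as well (summed 1670 to 4570 CPM in WT and 1410 to 2320 CPM in Mtm1-/y, 0 called), where 49.7% of all genes had a positive one. DESeq2 called 6 of the 8 white adipocyte markers lower, beside 0.359% of all genes. Adipoq was at 5.89 to 19.0 CPM in WT and 1.42 to 2.72 CPM in Mtm1-/y, although the summed level of that list overlapped (418 to 542 and 407 to 511 CPM). Whether these differences in tissue make-up account for those of the 9 genes was not tested.

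In the liver, 0 members were called by edgeR, DESeq2 or limma voom, beside 0.0% of 14305 genes by edgeR in either direction and 0.0299% higher and 0.12% lower by DESeq2. The 1 member with an unadjusted p under 0.05, beside 1.69% of all genes higher and 2.54% lower, was Tgfbr1, which was at 37.6, 37.6 and 30.8 CPM in WT and at 46.7, 42.3, 44.8 and 47.1 CPM in Mtm1-/y liver. Its groups did not overlap, as for 2.22% of all genes higher and 3.33% lower, and the log2 fold change was 0.35 ± 0.11 (edgeR adjusted p = 0.97). The other 8 members were within -0.40 (Ltbp4) and 0.41 (Tgfb2). They varied widely in Mtm1-/y liver, in which library 2 was the lowest for 9 of the 9 genes and library 3 the highest for Tgfb2, Tgfb3, Ltbp1, Ltbp2, Ltbp3 and Ltbp4. Ltbp2, for example, was at 2.63, 1.84 and 3.0 CPM in WT and at 1.9, 0.972, 6.24 and 2.83 CPM in Mtm1-/y, and the folds within 2 SE ran from 0.566 to 2.49.

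The difference between genotype effects was tested directly against the gastrocnemius. In the heart it was called for 4 members, all more negative in the heart, beside 9.89% of 16627 genes more negative and 9.94% more positive: Ltbp2 by -4.39 ± 0.54 on the log2 scale (edgeR adjusted p = 0.00017), Tgfb1 by -1.07 ± 0.24 (0.0064), Ltbp1 by -0.87 ± 0.23 (0.016) and Tgfb3 by -0.99 ± 0.28 (0.024). With 1 library left out at a time, the Tgfb3 difference ran from -1.13 to -0.66 (edgeR adjusted p up to 0.048). The Tgfb3 effect within the heart was itself smaller without WT heart 4. With the replicate number as a block, the calls of Tgfb3 (adjusted p = 0.064) and Ltbp1 (0.074) were lost. In the liver it was called for Ltbp2 alone (-2.92 ± 0.67, edgeR adjusted p = 0.02), beside 2.71% of 17179 genes more negative and 3.63% more positive, and this call was lost without WT liver 3 (0.051). Tgfb1 differed by -1.07 ± 0.32 there (edgeR adjusted p = 0.06, DESeq2 0.02). In the diaphragm 0 members were called by edgeR or DESeq2, beside 0.114% of 17509 genes more positive and 0.166% more negative. The Ltbp2 effect in diaphragm was -1.02 ± 0.61 relative to gastrocnemius (edgeR adjusted p = 0.51). All 3 tests share the gastrocnemius libraries.

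**Figure D3:**
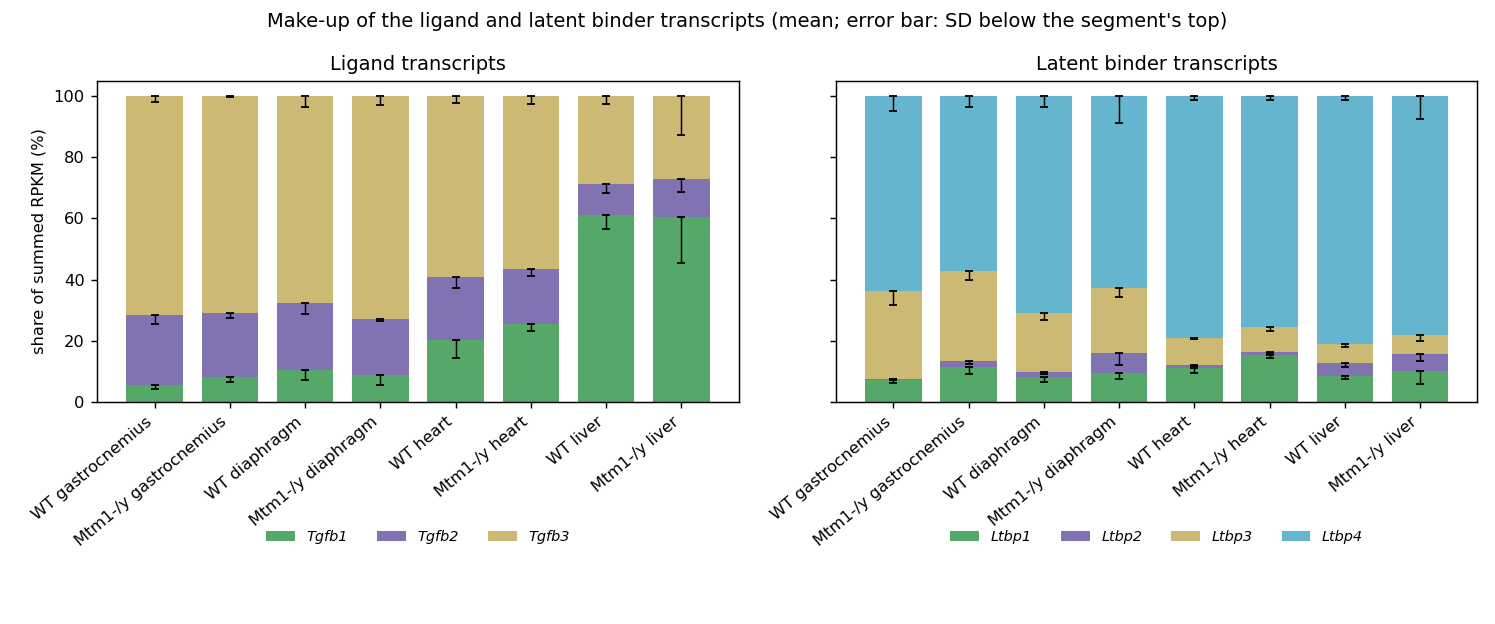
Stacked bars of each gene's share of the summed RPKM of the 3 ligands (left) and the 4 latent binders (right), in percent, as the mean of 3 or 4 libraries per group, with the SD drawn downwards from the top of each segment. Tgfb3 leads the ligands in muscle and heart and Tgfb1 in liver (61.0% in WT), and the Ltbp2 segment is wider in Mtm1-/y diaphragm (6.66%) than in WT diaphragm (1.53%).

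The balance of Ltbp transcripts to ligand transcripts also differed by tissue. The Ltbp sum includes Ltbp2, which does not bind latent TGF-beta itself. The summed Ltbp level per summed ligand level, both in RPKM, was 1.86 ± 0.224 in WT gastrocnemius, 2.92 ± 0.579 in diaphragm, 5.48 ± 0.19 in heart and 3.96 ± 0.219 in liver (n = 4, 4, 4 and 3). In Mtm1-/y tissues it was 1.52 ± 0.157, 2.02 ± 0.707, 4.96 ± 0.335 and 2.98 ± 0.551. The genotypes overlapped in the gastrocnemius (1.55 to 2.04 and 1.31 to 1.67), the diaphragm and the heart, and did not overlap in the liver (3.73 to 4.17 and 2.5 to 3.67). The liver ratios rest on low summed ligand levels, 1.89 ± 0.162 RPKM in WT and 1.96 ± 0.655 RPKM in Mtm1-/y. These ratios are descriptions without a test.

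The other genes of the pathway were taken from 6 lists with 65 entries in all. These lists were chosen with earlier results of these data known, so their counts are descriptions and not a test of the pathway. In the gastrocnemius 24 of 64 tested rose and 6 fell, beside 14.1% and 14.9% of all genes. Of the 30 calls, 6 rises were matrix anchors and 7 were activators and proteases, while 5 of the 6 falls were Smads and their regulators. By edgeR 0 list genes were called in the diaphragm, heart and liver. Without adjustment 24 in the diaphragm had a p under 0.05 and were higher, with 1 lower, beside 6.58% and 4.17% of all genes, and DESeq2 called 18 higher, beside 1.72%. Heart had 2 higher and 17 lower without adjustment, beside 3.05% and 5.83% of all genes, and 2 lower by DESeq2, beside 0.359%. These heart counts were not repeated without WT heart 4, which had the highest fibroblast marker sum of the WT hearts. Liver had 1 higher without adjustment, beside 1.69%, and 0 by DESeq2.

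Among the matrix anchors, 6 of 10 rose in the gastrocnemius and 0 fell, beside 14.1% and 14.9% of all genes. The median log2 fold change was 0.74. Mfap5, a microfibril protein that is also on the fibroblast list, rose from 29.9 ± 6.08 to 79.2 ± 13.6 CPM (log2 fold change 1.42, edgeR adjusted p = 0.00042). Fn1, the fibronectin gene, rose from 142 ± 48.0 to 305 ± 64 CPM (1.12, 0.0055), Efemp2, an elastic fibre protein, from 8.07 ± 1.24 to 11.7 ± 1.02 CPM (0.55, 0.0097), and Fbn2, a fibrillin, from 1.39 ± 0.727 to 3.74 ± 1.27 CPM (1.43, 0.015). In the diaphragm DESeq2 called 7 of 10 higher, beside 1.72% of all genes, and the median was 0.99. There Fn1, the most abundant anchor, was at 827 ± 355 and 806 ± 89.6 CPM, in heart Eln was at 242 ± 169 and 128 ± 20.6 CPM (edgeR adjusted p = 0.55), and in liver Fn1 was at 2480 ± 153 and 2460 ± 291 CPM. DESeq2 called 1 of the 10 anchors lower in the heart, beside 0.359% of all genes.

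Of 16 activators and proteases, 7 rose in the gastrocnemius and 0 fell (median 0.38), beside 14.1% and 14.9% of all genes. Mmp14, a membrane-bound matrix protease, rose from 17.4 ± 3.27 to 31.2 ± 1.15 CPM (log2 fold change 0.85, edgeR adjusted p = 0.001). Nrros, which tethers latent TGF-beta on macrophages and microglia, rose from 3.52 ± 0.719 to 6.81 ± 0.445 CPM (0.96, 0.0017), Plat, the tissue plasminogen activator, from 7.88 ± 1.5 to 11.9 ± 1.8 CPM (0.61, 0.019), and Itgav, the integrin chain that binds the latent propeptide, from 47.9 ± 4.7 to 63.0 ± 8.86 CPM (0.40, 0.02). The most abundant members elsewhere were Tgm2 in the diaphragm (322 ± 23.5 and 379 ± 98.6 CPM, edgeR adjusted p = 0.71) and heart (428 ± 85.8 and 345 ± 25.3 CPM, 0.55) and Furin, the protease that cleaves the TGF-beta precursor, in the liver (441 ± 33.7 and 392 ± 70.2 CPM, 0.97).

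Inside the cell, 1 of 12 Smads and regulators rose in the gastrocnemius and 5 fell, beside 14.1% and 14.9% of all genes. The median was -0.07. Tgif1, a nuclear corepressor of Smad2, rose from 4.31 ± 0.712 to 15 ± 4.25 CPM (log2 fold change 1.82, edgeR adjusted p = 0.00038). Smad3, a receptor-activated Smad, fell from 227 ± 29.2 to 145 ± 37.1 CPM (-0.64, 0.021), Zfyve9, which brings Smads to the receptor, from 75.2 ± 4.12 to 53.4 ± 2.63 CPM (-0.48, 0.0007), and Ski, a Smad corepressor, from 68.9 ± 0.633 to 57.4 ± 2.71 CPM (-0.25, 0.0093). In the diaphragm Smad3 was at 106 ± 19.8 and 108 ± 16.6 CPM, in heart Ski at 78.9 ± 8.87 and 71.1 ± 4.24 CPM, and in liver Smurf2, a ubiquitin ligase for Smads and receptors, at 60.5 ± 8.35 and 61.9 ± 13.7 CPM, none of them called by edgeR or DESeq2. DESeq2 called 1 gene of this list lower in the heart, Pmepa1, beside 0.359% of all genes. Pmepa1 was there at 33.3 ± 3.63 and 23.7 ± 1.66 CPM (log2 fold change -0.5, edgeR adjusted p = 0.35, DESeq2 0.012). Among the 6 co-receptors and type I receptor relatives, 1 fell in the gastrocnemius, the endothelial co-receptor Eng (66.9 ± 9.2 to 49.6 ± 3.23 CPM, log2 fold change -0.42, edgeR adjusted p = 0.011). Eng was also the most abundant of them in the other tissues, at 102 and 90.7 CPM in diaphragm, 202 and 155 CPM in heart and 85.9 and 70.6 CPM in liver for WT and Mtm1-/y.

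Of the 5 tested extracellular binders of active TGF-beta, 1 rose in the gastrocnemius, beside 14.1% of all genes. It was the proteoglycan gene Bgn, which rose from 135 ± 30.8 to 318 ± 54.4 CPM (log2 fold change 1.25, edgeR adjusted p = 0.00085). Dcn, another such proteoglycan and the most abundant of the list elsewhere, was at 631 ± 141 and 872 ± 297 CPM in diaphragm, 832 ± 267 and 633 ± 68.3 CPM in heart and 171 ± 39.6 and 154 ± 33.6 CPM in liver, with edgeR adjusted p-values of 0.61, 0.55 and 0.97. In the gastrocnemius 3 of the 5 fold changes were positive, with a median of 0.08. DESeq2 called 1 member of this list higher and 1 lower in the gastrocnemius, beside 12.5% and 13.4% of all genes. In the diaphragm DESeq2 called 1 higher and 0 lower, beside 1.72% and 0.675%.

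Of 15 transcripts known to rise after TGF-beta, 9 rose in the gastrocnemius and 0 fell, beside 14.1% and 14.9% of all genes. The median was 0.90. Cilp, a matrix protein of cartilage and fibrotic tissue, rose from 44.8 ± 17.2 to 510 ± 140 CPM (log2 fold change 3.52, edgeR adjusted p = 9.5e-05). Timp1, an inhibitor of matrix metalloproteases, rose from 2.21 ± 0.588 to 22.4 ± 8.6 CPM (3.35, 0.00023), Postn, a matrix protein of fibroblasts, from 39.9 ± 18.7 to 295 ± 93.8 CPM (2.90, 0.00042), and Col3a1, a fibrillar collagen, from 1010 ± 183 to 1660 ± 119 CPM (0.72, 0.003). In the diaphragm DESeq2 called 9 of the 15 higher, beside 1.72% of all genes, with a median of 1.31. Col3a1 was there at 1310 ± 425 and 3210 ± 1240 CPM (edgeR adjusted p = 0.32, DESeq2 0.019). In the heart the median was -0.65, 1 of 15 fold changes was positive, beside 49.7% of all genes, and Col3a1 was at 920 ± 325 and 692 ± 99.2 CPM. The WT hearts spanned 565 to 1340 CPM for Col3a1, and the heart values of this list were not recomputed without WT heart 4. In the liver Col3a1 was at 82.1 ± 6.49 and 95.3 ± 94.3 CPM, with 18.1 to 233 CPM in the Mtm1-/y libraries. Many other signals also move these transcripts, and Comp is on the tendon list as well.

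**Figure D4:**
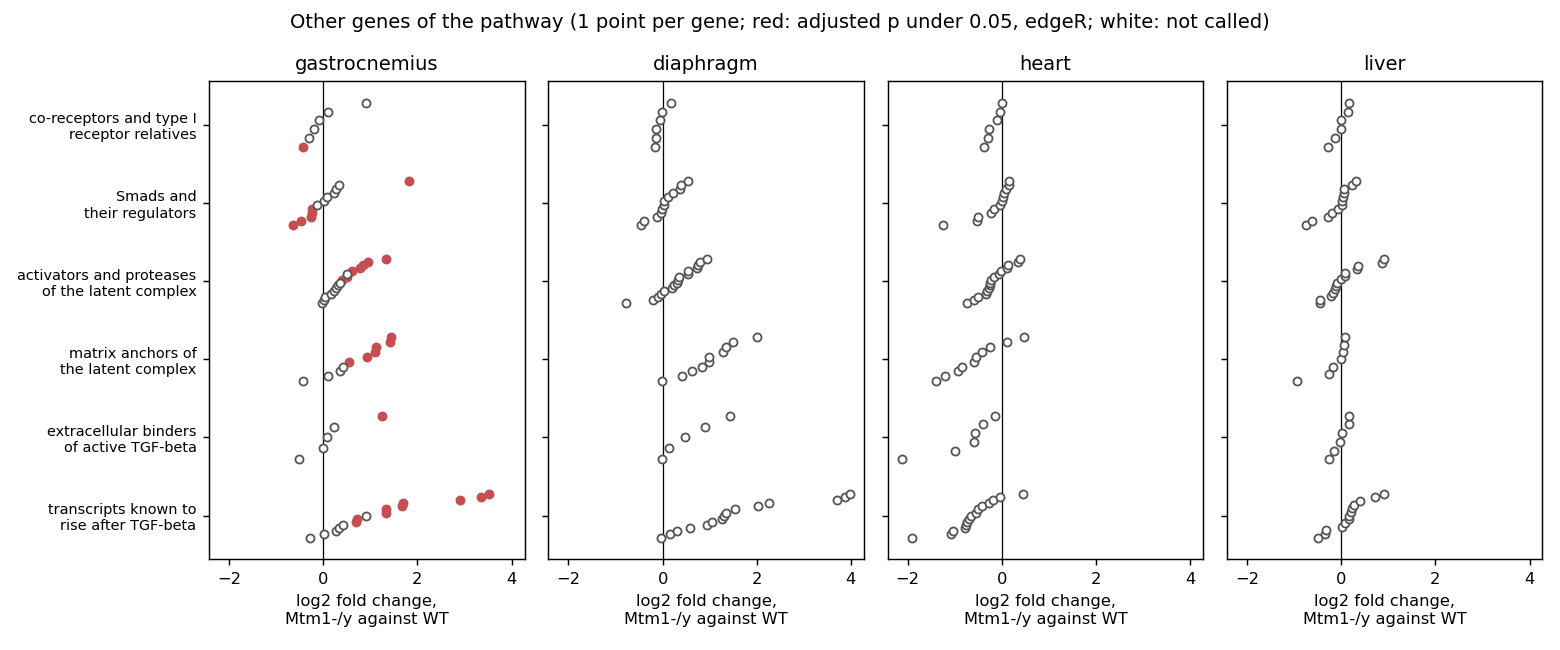
Log2 fold change of Mtm1-/y against WT for each tested gene of the 6 pathway lists (y axis) in each tissue (panels), red where the edgeR adjusted p was under 0.05 and white otherwise. Red points occur in the gastrocnemius only, where the transcripts known to rise after TGF-beta reach 3.52, and the medians of that list are 0.90, 1.31, -0.65 and 0.17 from left to right.

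Over the 30 libraries, which share the large differences between tissues, Tgfb2, Tgfb3 and Ltbp3 followed each other most closely (Pearson r of log2 CPM 0.988, 0.98 and 0.989 between the pairs Tgfb2 and Tgfb3, Tgfb2 and Ltbp3, and Tgfb3 and Ltbp3). Among 14097 genes compared, the most like Tgfb2 were Tgfb3 and Sema3c (0.984), a secreted semaphorin, those most like Tgfb3 were Lgals1 (0.99), a galectin, and Ltbp3, and those most like Ltbp3 were Tgfb3 and Tppp3 (0.986). The Tgfbr2, Ltbp1 and Ltbp4 levels also went together (r = 0.966, 0.956 and 0.951 for Tgfbr2 with Ltbp1, Tgfbr2 with Ltbp4 and Ltbp1 with Ltbp4). Closest to Tgfbr2 were Rassf2 and Abca9 (both 0.982), to Ltbp1 Hdgfl3 and Maml2 (both 0.982), and to Ltbp4 Dpysl2 (0.981) and Bcam (0.98). Ltbp2 stood apart from the other binders (r = 0.495, 0.392 and 0.439 with Ltbp1, Ltbp3 and Ltbp4), and was most like Bgn (0.89) and the MHC class II gene H2-Eb1 (0.845). Tgfb1 was most like Tlnrd1 (0.915) and Plekho2 (0.909), and Tgfbr1, the most even of the 9, was most like Slc30a4 and Cul1 (both 0.876).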

How the data were processed

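Poly-A RNA of 30 whole-tissue samples was sequenced by the authors with a kit that keeps the strand. Per the labels and the study's methods, the authors demultiplexed with bcl2fastq 2.17.1.14, trimmed with cutadapt 1.10 and used STAR 2.5.3a for alignment (build mm10). Uniquely aligned, unambiguous reads were counted per Ensembl gene by HTSeq 0.6.1p1. The strand setting of the counting is not given in the sources used here, so reads of overlapping genes on opposite strands may not be separated. The deposited values are raw counts per gene, with 0 value columns left unused.

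Groups were taken from the labels. Per the study's methods the replicates of a group are separate mice, while whether the same number in different tissues is the same mouse is not given in the sources used here. Counts were filtered with filterByExpr (count minimum 10), scaled by TMM and tested per tissue with edgeR 4.0.16 (quasi-likelihood, R 4.3.3), with Benjamini-Hochberg adjustment over all genes and a threshold of 0.05. WT tissues were compared in 1 fit, as were the genotype effects of each tissue and the gastrocnemius. RPKM used merged exons, and log2 CPM a prior count of 2. Alternatives were DESeq2 1.42.0, limma 3.58.1 voom, DESeq2 size factors, no filter, an added log2 fold change threshold of 1, all 30 libraries in 1 fit, a replicate block and each library left out. The edgeR and DESeq2 fits were also run on simulated counts with known fold changes and the same spread for all genes. No library stood apart in those counts, and no minimum recovery was required in the diaphragm. The simulation therefore does not bear on the small number of diaphragm calls.

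The 9 genes and all lists were chosen with earlier results of these data known. All 9 genes are named, with up to 4 called genes per pathway list in the gastrocnemius, the most abundant list gene where none was called, and the 2 genes most like each member over all libraries with a mean of at least 1 CPM. Pmepa1 is named besides for its DESeq2 call in the heart.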

Additional observations from a re-analysis of the deposited data

Results flagged for a closer look

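In 2 of 54 groups of 4 libraries, 1 library lay far from the other 3 by Dixon's criterion, where chance alone would give about 2.7. Tgfb1 in WT gastrocnemius 2 was at 4.32 CPM, with the other 3 WT libraries at 6.17 to 6.33 CPM. Ltbp1 in Mtm1-/y gastrocnemius 3 was at 37.8 CPM, with the others at 55.8 to 58.6 CPM.

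Of 27 tests of a difference between the genotype effect in a tissue and that in the gastrocnemius, 5 passed an edgeR adjusted p of 0.05. Relative to the gastrocnemius, the effect in the heart was -4.39 for Ltbp2, -1.07 for Tgfb1, -0.99 for Tgfb3 and -0.87 for Ltbp1 on the log2 scale, and the effect in the liver was -2.92 for Ltbp2. The Tgfb3 difference in the heart ran from -1.13 to -0.66 with 1 library left out at a time. The calls of Tgfb3 and Ltbp1 were lost with a replicate block (edgeR adjusted p = 0.064 and 0.074), and that of Ltbp2 in the liver without WT liver 3 (0.051).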

How the results depend on the processing

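No member changed the sign of a called difference under any alternative that was run. With the study's added fold threshold, 2 members and 1024 genes were called in the gastrocnemius, against 5 and 4479 without it, and 1, 4 and 1 members differed between WT gastrocnemius and diaphragm, gastrocnemius and heart, and diaphragm and heart. The study itself tested with DESeq2, whereas its threshold was applied to edgeR results here. With all 30 libraries in 1 fit the gastrocnemius gave 3 members and 2925 genes, the diaphragm 2 and 274, the heart 5 genes and the liver 14 genes. DESeq2 called 1 member and 440 genes in the diaphragm, 86 genes in the heart, 25 in the liver and 2 members in the liver difference. In the diaphragm limma voom called 9 genes, and the fits added after seeing the data called 4 (without liver-enriched genes) and 15 (liver-enriched share as covariate), against 2 in edgeR. With no filter 8 liver genes were called. The cause was not tested.

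Leaving out each library in turn gave 4 to 5 members and 3324 to 4280 genes in the gastrocnemius, 0 to 1 members and 0 to 162 genes in the diaphragm (162 without Mtm1-/y 2), 1 to 19 genes in the heart (19 without WT 1, 12 without WT 2) and 0 to 8 genes in the liver (8 without Mtm1-/y 1). Differing members ranged from 5 to 6 between WT gastrocnemius and diaphragm, 7 to 9 between gastrocnemius and heart, and 3 to 5 between diaphragm and heart (5 without WT heart 4). The heart difference ranged from 4 to 8 members (8 without WT heart 2) and the liver difference from 0 (without WT liver 3) to 2.

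Replicate numbers were not taken as pairs, since deviations of same-numbered samples correlated at -0.0188 to 0.1 in gastrocnemius, -0.692 to 0.497 in diaphragm, -0.581 to 0.302 in heart and -0.0182 to 0.4 in liver. Across tissues of 1 genotype they correlated at -0.143 to 0.265, with 13 of 42 over 0.1 (3 of 4 for WT diaphragm and heart). With the replicate block, 0 genes were called in the diaphragm, 5 members differed between WT diaphragm and heart (Tgfb3 and Ltbp3 added, edgeR adjusted p = 0.047 and 0.011), and 2 differed in the heart difference (Tgfb3 and Ltbp1 lost, 0.064 and 0.074). With the longest transcript as length, 34 shares moved by more than 1 SD and 22 did not. The 20 to 30 counts of Ltbp2 in each WT gastrocnemius library limit the precision of its level there.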
